A study of Mus musculus with 6 samples.

Results

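Cytosolic ribosomal protein genes were followed in retinal mRNA of mice labelled Cyfip2 CKO (conditional knockout) and Cyfip2 WT (wild type). They were chosen by symbol: those starting with Rpl (large subunit) or Rps (small subunit) and going on with p0 to p2, a, or a number with at most 1 letter, at an average level of 1 FPKM or more. FPKM is the number of sequenced fragments scaled by transcript length and library size, so that it can be compared between genes. Pseudogene symbols with -ps were left out. Of 81 matching symbols 78 reached this level, 46 of the large and 32 of the small subunit, among 24346 symbols in all. Those below it were Rpl3l, at 0.227, 0.825, 1.27, 0.950, 0.651 and 1.01 FPKM in CKO 1 to 3 and WT 1 to 3, and Rpl10l and Rpl39l, listed at 0 throughout. Just inside it were Rpl26, Rpl34 and Rpl30, with means of 4.42, 11.2 and 14.5 FPKM.

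The libraries were 3 CKO and 3 WT, all from retina. CYFIP2 protein is part of the WAVE complex, which promotes branched actin assembly, and also binds the RNA-binding protein FMRP. Age, strain, alleles, Cre driver and any pooling of animals were not stated in the labels used here. Nothing says that each library is a different animal. The p-values therefore set group differences only against a spread estimated from these libraries, and that spread may be technical. WT 3 stood apart from the other libraries in most members, and the comparison is therefore given with and without each library.

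Each ribosome carries its proteins in nearly equal numbers, and their genes are among the most highly transcribed in most cells. Most of their mRNAs are short and start with a run of pyrimidines, the terminal oligopyrimidine (TOP) motif, through which mTOR and LARP1 control translation; protein and translation were not measured here. Ribosomal protein mRNAs have also been copied back into the genome many times, leaving intronless copies that can resemble the parent gene closely. In whole retina, fewer cells of a type and less RNA per cell cannot be told apart.

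Such copies bear on which values can be read, so their sequences come first. Coding transcripts of 77 members (GENCODE M21, GRCm38) were searched against the transcripts of all other symbols in the files, and 12 had another symbol at 95% identity or more over at least 50% of a transcript. For 4 the other symbol was listed higher than the member itself: Rps27rt for Rps27, and the processed pseudogenes Rpl34-ps1 for Rpl34, Gm15772 for Rpl26 and Gm12191 for Rpl30. The copy differed from the coding sequence at 0 of 255 bases for Rps27, 2 of 354 for Rpl34, 2 of 438 for Rpl26 and 1 of 348 for Rpl30. Counted from the A of the start codon, with the member's base first, the substitutions were T132C and C318G in Rpl34-ps1 and C177T and T288C in Gm15772. Stretches of 3 pairs show how little separates a member from its copy. They cover coding positions 1 to 90 (Rps27), 88 to 177 (Rpl34) and 133 to 222 (Rpl26), with a differing base in capitals.
Rps27: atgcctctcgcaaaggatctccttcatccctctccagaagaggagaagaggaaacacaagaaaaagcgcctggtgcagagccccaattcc
Rps27rt: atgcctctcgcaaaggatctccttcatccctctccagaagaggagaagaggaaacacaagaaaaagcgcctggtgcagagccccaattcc
Rpl34: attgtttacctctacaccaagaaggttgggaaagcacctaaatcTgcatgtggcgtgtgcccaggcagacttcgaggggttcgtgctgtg
Rpl34-ps1: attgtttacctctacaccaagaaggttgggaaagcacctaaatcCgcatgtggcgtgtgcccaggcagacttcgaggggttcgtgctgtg
Rpl26: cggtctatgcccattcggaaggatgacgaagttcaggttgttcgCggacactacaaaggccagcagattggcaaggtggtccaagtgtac
Gm15772: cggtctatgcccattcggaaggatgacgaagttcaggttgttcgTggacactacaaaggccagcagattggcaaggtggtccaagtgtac

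These members and their copies lie at separate places on GRCm38. Rps27 is at chr3:90212522-90213651 (minus strand) and Rps27rt at chr9:114982366-114982739 (minus strand). Rpl34 is at chr3:130726831-130730398 (minus strand) and Rpl34-ps1 at chr6:71124610-71124963 (plus strand). Rpl26 is at chr11:68901583-68906989 (plus strand) and Gm15772 at chr5:3236431-3236868 (plus strand). The printed bases are exonic and coding in the member.

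These genes were the 4 lowest of the 78 members, and their copies stood at the family's usual levels. Rps27, a zinc finger protein of the small subunit, was at 15.9, 21.02 and 24.96 FPKM in CKO 1 to 3 and at 12.8, 10.2 and 14.8 FPKM in WT 1 to 3. Rps27rt was at 614, 572 and 569 FPKM in CKO and 604, 648 and 637 FPKM in WT, 97.3% of the summed mean of the pair. All CKO values of Rps27 lay above all WT values, while those of Rps27rt overlapped. Rpl34 was at 10.97, 5.73 and 11.8 FPKM in CKO and 15.6, 10.96 and 12.3 FPKM in WT, and Rpl34-ps1 ranged from 357 to 402 FPKM. Rpl26, a protein at the peptide exit tunnel, was listed at 0 in CKO 1, CKO 2 and WT 1 and was at 8.17, 9.72 and 8.60 FPKM in CKO 3, WT 2 and WT 3. Its copy Gm15772 ranged from 417 to 504 FPKM, with no library at 0. Rpl30 was listed at 0 in WT 1 and was at 21.1, 13.3 and 17.2 FPKM in CKO and 13.9 and 21.5 FPKM in WT 2 and WT 3, and Gm12191 ranged from 345 to 419 FPKM. How reads matching both symbols were assigned was not stated in the sources, so the level of each of these members alone is uncertain.

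**Figure D1:**
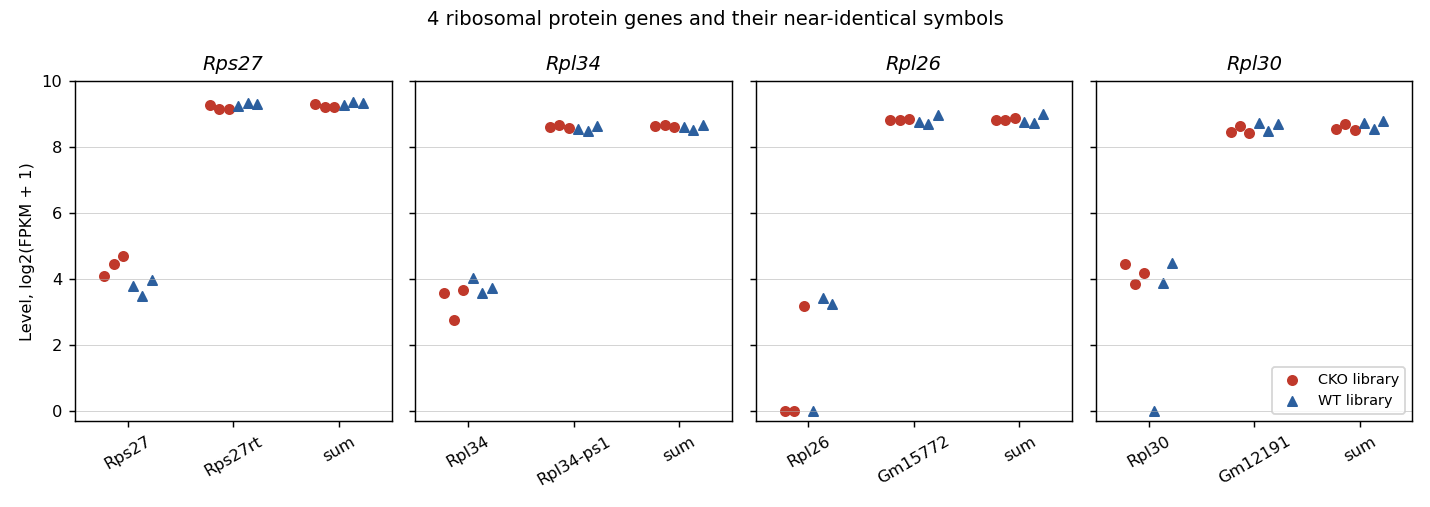
Level in log2(FPKM + 1) (vertical axis) of 4 ribosomal protein genes, the near-identical symbol of each and their sum; circles are the 3 CKO and triangles the 3 WT libraries. In every library the copies (lowest 345 FPKM) sit above the members (highest 24.96 FPKM), and the sums follow the copies.

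Each member was therefore also fitted summed with its copy, a choice made after their values were seen. Rps27 alone averaged 20.6 ± 4.52 FPKM in the knockouts and 12.6 ± 2.29 FPKM in the controls (SD, 3 libraries each), with a log2 fold change of 0.66 (SE 0.17; limma, unadjusted p = 0.00493, adjusted p = 0.412). With Rps27rt added, the level was 630.0, 594 and 594 FPKM in CKO and 617, 658 and 651 FPKM in WT. The groups of this sum overlapped, and its log2 fold change was -0.084 (95% interval -0.20 to 0.030; limma adjusted p = 0.744), opposite in sign to Rps27 alone. The summed pairs of Rpl34, Rpl26 and Rpl30 gave 0.048 (-0.067 to 0.16), 0.0056 (-0.16 to 0.17) and -0.10 (-0.27 to 0.077), again opposite in sign to the member alone, and all 3 intervals included 0. Among the other members the largest copy was BC004004, at a mean of 20.2 FPKM beside Rpl21 at 134 FPKM.

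The TOP motif was searched at the gene starts of RefSeq (GRCm38.p6), whose windows of 250 bases before to 50 after the start were found for 57 members. A C followed by at least 4 bases of C or T began exactly at an annotated start in 13 of them (22.8%), beside 3.01% of 27025 genes. Allowing it to begin up to 5 bases to either side, the shares were 49.1% and 21.2%. A match describes these letters and an annotated start, not the start used in retina. Because the tract is what these mRNAs are known for, the 10 bases before and 20 from the start are shown for 4 members with it (in capitals) and for Rpl41, which has none there.
Rps6 (chr4:86857348-86857377, minus strand): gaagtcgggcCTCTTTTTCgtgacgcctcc
Rpl15 (chr14:18270967-18270996, minus strand): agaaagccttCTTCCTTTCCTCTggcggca
Rpl38 (chr11:114668570-114668599, plus strand): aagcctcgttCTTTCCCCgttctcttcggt
Rps27 (chr3:90213629-90213658, minus strand): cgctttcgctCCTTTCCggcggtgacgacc
Rpl41 (chr10:128549149-128549178, minus strand): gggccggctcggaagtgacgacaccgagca

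Other motifs were searched on both strands of the whole window, at any position. All genes here are the 27025 with such a window, expressed or not, and base content was not matched. CCGGAAG, the core of ETS factor sites, was present in 42.1% of the members and 9.93% of all genes. AAGATGG, the core of YY1 sites, was present in 15.8% of the members and 7.28% of all genes. TATAAA, the letters of the TATA box, was present in 10.5% of the members and 15.7% of all genes. A match shows these letters, not a working site.

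Levels within the family were high and even. The members took 5.51% to 5.68% of the summed FPKM of a library. With the copies of Rps27, Rpl34, Rpl26 and Rpl30 added, the share was 5.95% to 6.13%. Their median level was 289 FPKM, against 12.6 FPKM over the 13215 genes averaging at least 1 FPKM, and 60 of 78 lay within 2-fold of that median. Large and small subunit genes had medians of 280.4 and 293 FPKM. Highest was Rps29, a zinc-binding protein of the small subunit, at 851, 819 and 898 FPKM in CKO 1 to 3 and 851, 841 and 934 FPKM in WT 1 to 3. Rpl41, the smallest ribosomal protein, was at 839, 865 and 875 FPKM in CKO and 790.3, 894 and 903 FPKM in WT. These neighbours did not differ beyond their spread. Rpl38, needed in mice for normal patterning of the axial skeleton, was at 776, 772 and 701 FPKM in CKO and 638, 692 and 821 FPKM in WT. Rplp1 of the ribosomal stalk was at 695, 711 and 725 FPKM in CKO and 719, 734 and 786 FPKM in WT, within the range of Rpl38. Rps15 came next at 532, 559.5 and 574 FPKM in CKO and 549, 555 and 564 FPKM in WT, below the 4 before it in all libraries. FPKM is scaled by transcript length, and the longest coding transcripts of these highest members had 390 to 582 bases. The median over the members was 914 bases, and the part of length in this order was not tested.

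**Figure D2:**
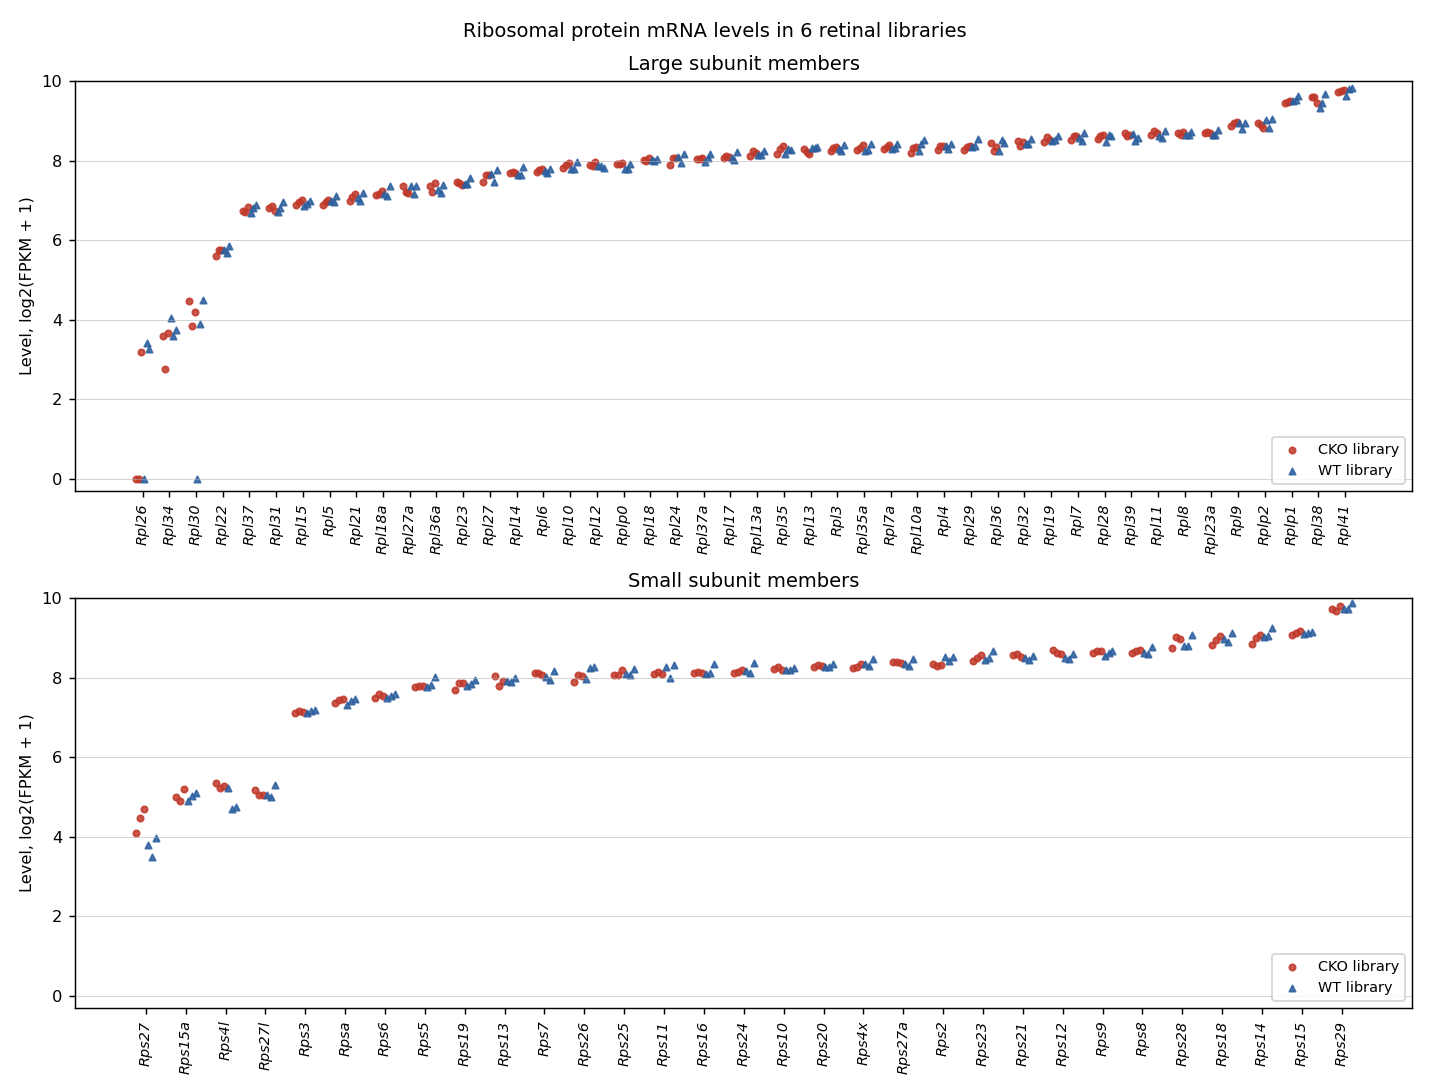
Level of 77 of the 78 members in log2(FPKM + 1) (vertical axis) in every library, large subunit above and small subunit below, ordered by mean; circles are CKO and triangles WT libraries. Rpl26, Rpl34, Rpl30 and Rps27 are the lowest, and the other members shown have means of 31.6 to 866 FPKM.

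At the low end 8 members averaged under 60 FPKM: the 4 with a higher copy, Rps15a (28.7 to 36.1 FPKM), Rpl22 (47.5 to 56.95 FPKM) and the paralog symbols Rps27l and Rps4l. Rps27l, the paralog of Rps27, was at 35.3, 32.3 and 32.1 FPKM in CKO and 31.96, 31.2 and 38.4 FPKM in WT, with overlapping groups. Rps4l, at chr6:148354656-148355598 (plus strand) and classed by GENCODE as a transcribed processed pseudogene, was at 39.6, 36.5 and 37.4 FPKM in CKO and 36.7, 25.1 and 25.8 FPKM in WT. WT 1 lay within the CKO range, and WT 2 and WT 3 lay below it. Its X-linked parent Rps4x was at 304, 309 and 326 FPKM in CKO and 323, 314 and 351 FPKM in WT, again overlapping. Variation between libraries was small, with a median coefficient of variation of 5.27% beside 8.14% over all genes. This comparison was not matched for level, and the median level was 289 FPKM in members and 12.6 FPKM over all genes.

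Between CKO and WT no ribosomal protein gene passed the threshold. Groups were compared with limma on log2(FPKM + 1) over 13215 genes, with Benjamini-Hochberg adjustment over all of them. An adjusted p under 0.05 was reached by 0 of 78 members (background 0.0227% of all genes, 0.0151% higher and 0.00757% lower), and the smallest among them was 0.412. An unadjusted p under 0.05 was reached by 2 members higher in CKO, Rps27 and Rps4l, and 1 lower, Rps2 (3 of 78; background 7.88% of all genes, 3.52% higher and 4.36% lower). The groups did not overlap for 1 member higher in CKO, Rps27, and 2 lower, Rps2 and Rpl13 (3 of 78; background 13.9% of all genes, 6.96% higher and 6.95% lower). Fold changes were above 0 for 32 members and below 0 for 46, with a median log2 fold change of -0.0090 beside -0.0016 over all genes. For 66 of 78 the whole 95% interval lay within 0.25 of 0, a 1.19-fold difference. Cyfip2, which checks the labels, was at 8.33, 10.2 and 11.2 FPKM in CKO and 35.5, 63.1 and 62.3 FPKM in WT (log2 fold change -2.29, limma adjusted p = 0.0239); with 1 library left out the adjusted p was 0.00160 to 0.197.

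**Figure D3:**
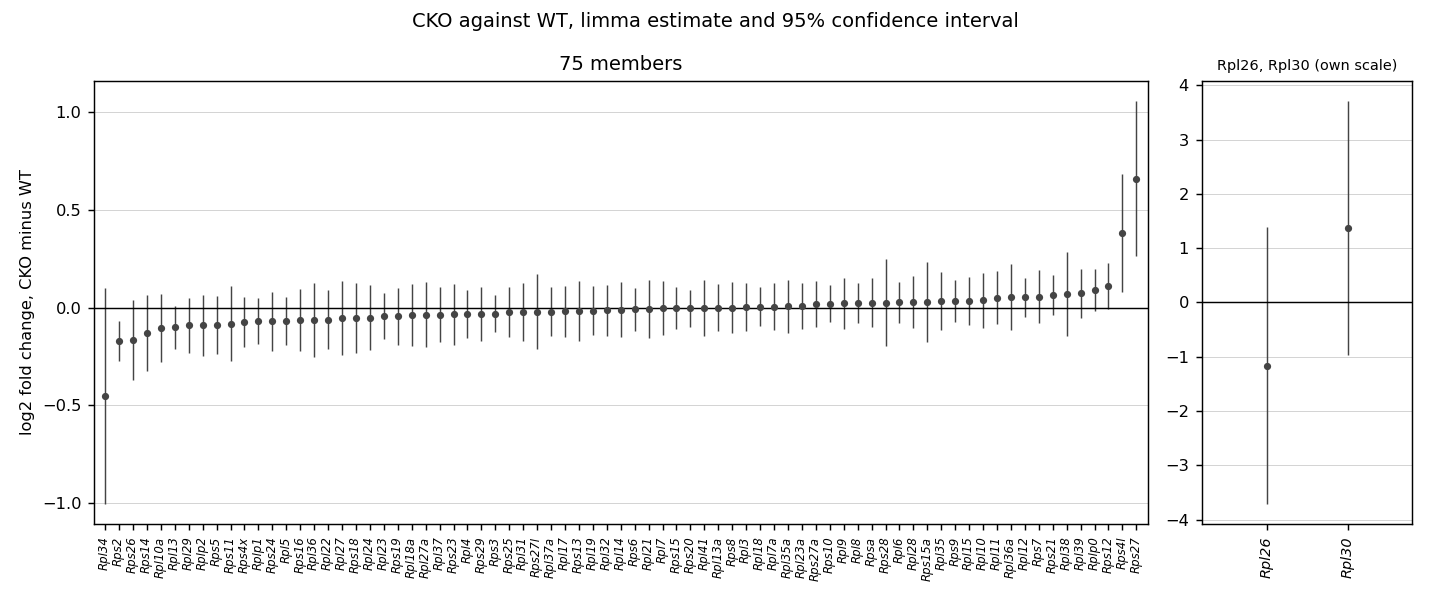
Log2 fold change (CKO minus WT, log2(FPKM + 1) scale, vertical axis) of 77 of the 78 members with the 95% confidence interval from limma, ordered by the estimate; Rpl26 and Rpl30, listed at 0 in some libraries, have a scale of their own. The intervals of Rps27, Rps4l and Rps2 do not include 0, and all others shown do.

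Rps2 encodes a protein at the mRNA entry of the small subunit and lies at chr17:24718116-24721929 (plus strand). It was at 321, 309.8 and 320.3 FPKM in CKO 1 to 3 and 366, 342 and 364 FPKM in WT 1 to 3. Every CKO library lay below every WT library. The log2 fold change was -0.17 (SE 0.045; limma, unadjusted p = 0.00551, adjusted p = 0.418), and -0.20 to -0.15 without any 1 library. Rps4l had a log2 fold change of 0.38 (SE 0.13; limma, unadjusted p = 0.0195, adjusted p = 0.550). Without WT 1 it was 0.55 (limma, unadjusted p = 3.59e-05, adjusted p = 0.119). Without WT 2 it was 0.29 (limma, unadjusted p = 0.0732, adjusted p = 0.702) and without WT 3 0.31 (unadjusted p = 0.0698, adjusted p = 0.801). Leaving out CKO 1, CKO 2 or CKO 3 gave 0.35, 0.41 and 0.39 (limma, unadjusted p = 0.0601, 0.0371 and 0.0432). Rpl13, a large subunit protein, was at 314, 299 and 284 FPKM in CKO and 316, 318 and 326 FPKM in WT, without overlap but by a small margin (log2 fold change -0.10; limma, unadjusted p = 0.0712, adjusted p = 0.674).

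The remaining members of smallest p overlapped between groups. Rps12 was at 409.9, 389.9 and 385 FPKM in CKO and 360.1, 352 and 385 FPKM in WT. Rplp0, the base of the stalk, was at 239, 239 and 246 FPKM in CKO and 222, 219.9 and 239 FPKM in WT. Rps21 was at 376, 385 and 365 FPKM in CKO and 360.4, 347 and 369 FPKM in WT. For these 3 WT 1 and WT 2 lay below all CKO libraries, and WT 3 did not. Rps26, at the mRNA exit of the small subunit, was at 236, 265 and 262 FPKM in CKO and 248, 301 and 309 FPKM in WT. Rps14 was at 455, 513 and 541 FPKM in CKO and 516, 525 and 609 FPKM in WT. Rpl29 was at 309, 321 and 327 FPKM in CKO and 323, 327 and 371 FPKM in WT, so that in all 3 the WT 3 value was the highest.

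Members were also grouped by role, after their values were seen. In the P stalk, which recruits elongation factors, Rplp0, Rplp1 and Rplp2 had log2 fold changes of 0.089, -0.069 and -0.089. Rpl5 and Rpl11, which together with 5S rRNA can bind Mdm2, were at -0.069 and 0.052. Of 9 proteins around the peptide exit tunnel, 3 lay above and 6 below 0 (median -0.019). Rpl26, whose own level is uncertain, is counted among those below. Of 7 along the path of the mRNA, Rps2, Rps26 and Rps14 among them, 2 lay above and 5 below 0 (median -0.087). WT 3 held the highest value for 6 of these, and for 53 of all 78 members. Rps6, the substrate of S6 kinase, was at 177, 190.4 and 184 FPKM in CKO and 178, 184 and 193 FPKM in WT (log2 fold change -0.0083, 95% interval -0.12 to 0.10). Of 17 genes mutated in Diamond-Blackfan anaemia, a failure of red cell production, 9 lay above and 8 below 0 (median 0.0041). Rps27 and Rpl26, whose own levels are uncertain, are counted among them. Rps19, the first gene to be linked to the disease, was at 207, 234 and 230.4 FPKM in CKO and 219, 227 and 244 FPKM in WT. Rpl24, mutated in the Belly spot and tail mouse, was at 238, 269 and 267 FPKM in CKO and 272, 245 and 286 FPKM in WT. The 4 X-linked members had log2 fold changes of -0.072 to 0.074.

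The members moved together between libraries, most of all within the WT group. In WT 3, 74 of 78 members lay above their own mean over the 6 libraries, against 50.6% of all genes, and the median deviation of the members was 0.095 on the log2 scale. In CKO 1 to 3 the median deviations were -0.040, 0.0086 and 0.025, and in WT 1 and WT 2 -0.037 and -0.034. WT 3 was thus high, CKO 2 and CKO 3 intermediate, and CKO 1, WT 1 and WT 2 low, so that the groups overlapped. Over all genes the median deviation of a library was -0.00069 to 0.0026. WT 3 held the highest value for 53 of 78 members, beside 19.96% of all genes. The levels of all 78 summed to 22636, 23178 and 23473 FPKM in CKO 1 to 3 and 22565, 22580.5 and 24766 FPKM in WT 1 to 3. With the copies of Rps27, Rpl34, Rpl26 and Rpl30 added, the sums were 24443, 25010 and 25222 FPKM in CKO. In WT these sums were 24392, 24361 and 26718 FPKM. Both subunits shared the high values in WT 3, with 44 of 46 large and 30 of 32 small subunit genes above their mean.

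**Figure D4:**
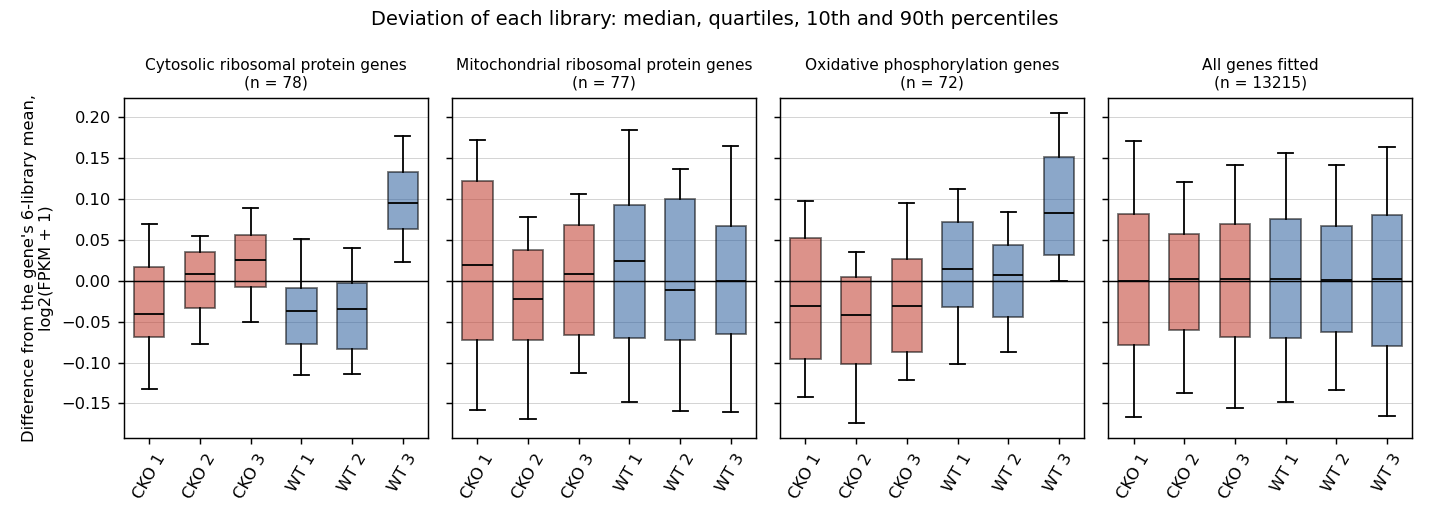
Difference of each gene from its mean over the 6 libraries in log2(FPKM + 1) (vertical axis), by library, for 4 sets of genes; boxes give the median and quartiles, whiskers the 10th and 90th percentiles, CKO in red and WT in blue. Medians in WT 3 are 0.095 for cytosolic ribosomal protein genes, 0.083 for oxidative phosphorylation genes and -0.00060 for mitochondrial ribosomal protein genes.

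Other measures in WT 3 are given beside this. Oxidative phosphorylation genes, many with short and abundant mRNAs, had a median deviation of 0.083 there, with 64 of 72 above their mean. Mitochondrial ribosomal protein genes had -0.00060, with 38 of 77 above. Among genes other than the members the median deviation in WT 3 fell with the length of the longest transcript, from 0.054 under 1000 bases through 0.033 up to 2000 and 0.0052 up to 4000 to -0.017 beyond. The members' was 0.095, 0.10 and 0.078 in the first 3 of these ranges. The 9 microglia and macrophage markers summed to 50.6 FPKM in WT 3, 34.2 to 34.5 FPKM in the other WT and 33.7 to 38.03 FPKM in the CKO libraries, and 8 of 8 fitted were above their mean in WT 3; Ptprc was listed at 0 in CKO 2. Blood markers summed to 30.8 FPKM in WT 3, 17.2 to 18.4 FPKM in the other WT and 12.8 to 21.1 FPKM in the CKO libraries, nearly all of it Hba-a1; 5 of 6 symbols were found, and Slc4a1 was listed at 0 in CKO 1 to 3 and WT 1. Mir8104 was listed at 19268 FPKM in WT 3, 2059 FPKM in CKO 1 and 0 elsewhere. Without it the members' share of the summed FPKM was 5.94% in WT 3 and at most 5.68% in the other libraries. The part of these measures in the result was not tested.

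The direction of the family's median depended on which library was left out. Without WT 3 the median log2 fold change was 0.033 and 58 of 78 members lay above 0 (74.4%, beside 49.5% of all genes). Without WT 1 it was -0.029 (20 above 0) and without WT 2 -0.028 (25 above 0). Without CKO 1 it was 0.011 (45 above 0), without CKO 2 -0.010 (31 above 0) and without CKO 3 -0.021 (26 above 0). The median of all genes stayed between -0.0018 and -0.00049. The sign of the fold change held in all 6 fits for 33 members and turned without WT 3 for 26. By limma, 0 members had an adjusted p under 0.05 in any of the 6, and 1 to 5 higher and 1 to 4 lower had an unadjusted p under 0.05, where 5.94% to 7.70% of all genes did.

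**Figure D5:**
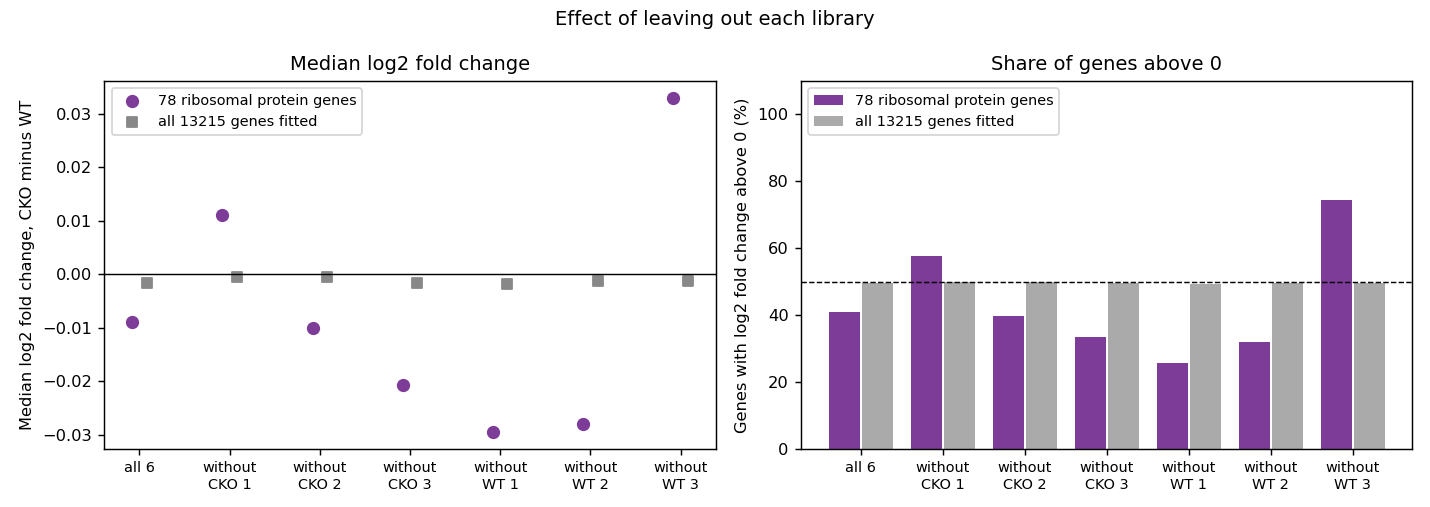
Left, median log2 fold change (CKO minus WT) of the 78 members and of all 13215 genes with all libraries and without each in turn; right, bars of the percentage of genes above 0, with a dashed line at 50%. The member median is above 0 without CKO 1 (0.011) and without WT 3 (0.033) and below 0 otherwise.

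Ribosomal protein genes and genes named like them that the pattern does not reach held no call. Fau, fused to a ubiquitin-like protein, was at 359 ± 13.6 against 358 ± 33.9 FPKM (CKO against WT; SD, 3 libraries each), and Gnb2l1, the older symbol of the scaffold protein Rack1, was at 188 ± 7.73 against 194 ± 9.54 FPKM. Rpl22l1, the paralog of Rpl22, was at 68.6 ± 6.46 against 73.7 ± 2.51 FPKM, above Rpl22 itself. Rpl7l1 was at 19.2 ± 1.32 against 18.6 ± 1.77 FPKM. Of 6 such genes, 2 lay above and 4 below 0 (median log2 fold change -0.022), with 0 at an unadjusted p under 0.05 by limma. Rps3a1, outside this list and noticed afterwards, had a mean of 273 FPKM and a log2 fold change of -0.056. Rpl37rt, a low symbol also noticed afterwards, was at 1.14, 0.918 and 0.502 FPKM in CKO and 1.78, 1.63 and 2.80 FPKM in WT, with every CKO library lower (log2 fold change -0.73; limma, unadjusted p = 0.00557, adjusted p = 0.418).

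Genes that share the TOP motif, control growth or build ribosomes held no call by adjusted p either. Of 16 translation factors and related TOP mRNAs, 9 lay above and 7 below 0 (median log2 fold change 0.023); Eif3e, an initiation factor subunit, was at 61.6 ± 3.71 against 68.6 ± 3.47 FPKM (limma, unadjusted p = 0.0338, adjusted p = 0.598). In WT 3, 13 of these lay above their mean. Of 15 genes of mTOR signalling and Myc factors, 10 lay above and 5 below 0 (median log2 fold change 0.028); Tsc1, an inhibitor of mTOR complex 1, was at 14.6 ± 0.534 against 13.1 ± 0.474 FPKM (limma adjusted p = 0.622). Of 15 genes of rRNA transcription, 9 lay above and 6 below 0 (median log2 fold change 0.017); Polr1e, a subunit of RNA polymerase I, was at 2.63 ± 0.309 against 1.88 ± 0.321 FPKM (limma adjusted p = 0.595). Of 12 chaperones and transport factors, 5 lay above and 7 below 0 (median log2 fold change -0.0089).

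Of 39 ribosome assembly genes, 19 lay above and 20 below 0 (median log2 fold change -0.0027), and 2 higher and 2 lower had an unadjusted p under 0.05. Nop10, Nhp2, Gar1 and Dkc1 are the core proteins of the H/ACA particle, which guides rRNA modification, and their fold changes lay on both sides of 0. Nop10 was at 33.1, 32.6 and 34.6 FPKM in CKO and 29.4, 27.6 and 30.9 FPKM in WT, with every CKO library higher (limma adjusted p = 0.505). Nhp2 was at 9.98, 9.81 and 10.7 FPKM in CKO and 15.3, 13.7 and 10.8 FPKM in WT, and Gar1 at 6.34, 7.13 and 5.94 FPKM in CKO and 7.68, 9.63 and 7.59 FPKM in WT, with every CKO library lower (limma adjusted p = 0.550 and 0.556). Dkc1, added after its values were seen, was at 7.90 ± 0.680 against 7.78 ± 0.238 FPKM (CKO against WT; SD, 3 libraries each), with overlapping groups (log2 fold change 0.017). Nop2, an rRNA methyltransferase, was at 11.2 ± 0.0941 against 9.94 ± 0.119 FPKM. Of 77 mitochondrial ribosomal protein genes, 33 lay above and 44 below 0 (median log2 fold change -0.017), with 3 higher and 6 lower at an unadjusted p under 0.05. Of 72 oxidative phosphorylation genes, 17 lay above and 55 below 0 (median log2 fold change -0.055), with 0 higher and 11 lower at that p. The background for all these counts was 3.52% of all genes higher and 4.36% lower (limma, unadjusted p under 0.05). Whether these lists differ from the cytosolic ribosomal protein genes was not tested.

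All 20 retinal markers were detected. By limma 0 were called, while 2 higher and 5 lower in CKO had an unadjusted p under 0.05. The background was 3.52% of all genes higher and 4.36% lower. Groups did not overlap for 2 markers higher and 6 lower (background 6.96% of all genes higher and 6.95% lower). By both measures the share of markers lower in CKO was above the background. Their part in the values of the ribosomal protein genes was not tested. Pearson's r between libraries was 0.9681 to 0.9794 across the fitted genes, which are not independent replicates. Lens markers were highest in WT 2, with a sum of 226 FPKM, followed by WT 3 at 79.8 FPKM and 4 libraries at 25.6 to 42.7 FPKM. Endothelial and pericyte markers summed to 128 to 142 FPKM, pigment epithelium markers to 6.87 to 14.5 FPKM and muscle markers to 3.52 to 6.78 FPKM.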

How the data were processed

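RNA of 6 retinal samples was sequenced, and sample titles gave the groups. TRIzol extraction and a stranded TruSeq mRNA kit are named per the labels' protocols. Builds and tools in the submitters' processing notes are mm10, Cufflinks 2.2.1, SAMtools 1.11, TopHat2 2.0.13 and Bowtie2 2.3.5.1; annotation and strand use were not stated. The authors deposited FPKM per gene symbol, a unit judged from those tools and the values. Absolute depth is unknown. Steps in values below 0.3 FPKM gave depths relative to WT 1 of 1.04, 1.3 and 1.2 in CKO 1 to 3. In WT 2 and WT 3 the depths were 1.09 and 1.07. Between 69.3% and 74.1% of the genes used lay on whole steps, so these depths are rough. In WT 3, 27 symbols turned into dates were restored by row.

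Genes averaging 1 FPKM or more were fitted as log2(FPKM + 1), which understates changes of low genes, with limma 3.58.1 in R 4.3.3 (variance trend, two-sided, Benjamini-Hochberg 0.05). The fit was tested on simulated data. BLAST 2.17.0 found near-identical symbols. Members, lists and the rule for named genes (5 highest, 6 of smallest p in each direction, any over 4-fold from the other libraries, paralogs) were chosen with earlier results of these data known. Some items these rules name are not reported here. Alternatives varied pseudocount, filter, scaling, eBayes settings, replicate number, libraries and member list.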

Additional observations from a re-analysis of the deposited data

How the results depend on the processing

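By limma, 0 ribosomal protein genes were called under any of the 21 alternatives, and the smallest adjusted p among the members was 0.119 (without WT 1) to 0.792 (without CKO 2). Their median log2 fold change was -0.029 to 0.033 with 1 library left out, 0.0055 with quantile normalization (43 above and 35 below 0, all genes 0.0040), and -0.0097 to -0.0083 otherwise. By limma, members with an unadjusted p under 0.05 numbered 5 higher and 1 lower with quantile normalization (7.93% of all genes, both directions). Without WT 3 they were also 5 and 1 (6.40% of all genes, both directions). Taken over both directions these counts were near the background. The background by direction was not computed for these settings.

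Of 318 alternative values for the 21 members named by the rule, 15 changed sign, and 0 crossed the threshold. Summed with its copy, a choice added after seeing the data, Rps27 was -0.084, Rpl34 0.048, Rpl26 0.0056 and Rpl30 -0.10. With 1 library left out, log2 fold changes whose sign turned ran from -0.066 to 0.016 for Rps29, -0.064 to 0.032 for Rpl41, -0.0090 to 0.17 for Rpl38, -0.027 to 0.027 for Rps15, -0.028 to 2.22 for Rpl30 and -0.074 to 0.070 for Rps27l. Rps29 turned without WT 3 (0.016), Rpl41 without CKO 1, WT 2 or WT 3, Rpl38 and Rpl30 without WT 1, Rps15 without CKO 1 or WT 3, and Rps27l without CKO 3 or WT 3. With quantile normalization Rps15 was 0.050. The cause was not tested. The Cyfip2 call was lost in 8 alternatives, at adjusted p of 0.0663 to 0.197 by limma.

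Same-numbered libraries deviated together at r = 0.0718, 0.00634 and 0.101. Such correlations cannot show whether these libraries share more than a number, and the sample titles do not say. With the replicate number as a block, the members' median was -0.0090, 0 were called (smallest limma adjusted p = 0.314), and 2 higher and 5 lower had an unadjusted p under 0.05, beside 9.62% of all genes. Of 6 libraries 4 correlated best with their own number. Precision is limited by 3 libraries a group; the values carry no counts.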
